A study of Mus musculus with 6 samples.

Results

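Arc, Fos, Fosb and Egr2, 4 immediate early genes, were examined in the prelimbic cortex (PL), a medial part of the mouse frontal cortex, after chronic restraint. They were chosen as genes of this class that the study's 2 tables of selected genes name, out of 885 gene symbols on 899 probes named there and 25697 probes on the arrays. A probe entered those tables when its group means differed by at least 1.2-fold, CRST from CON in one table and CRST+RS5 from CRST in the other, on the same arrays that are described here. Arc and Egr2 were listed in the first table, Fosb in the second and Fos in both. The differences in these 2 comparisons are therefore given as a description, without a test.

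All groups were male C57BL/6 mice aged 3 months. CON mice were not restrained. CRST mice underwent daily restraint of 2 h for 14 days. CRST+RS5 mice underwent the same 14 days and then 14 further days with a daily restraint of 5 min. Tissue was taken on post-stress day 22. The paper's designs count these days from the end of the 2 h restraint, with the 5 min restraint on the first 14. Sampling therefore fell days after the last restraint of either kind, and the exact interval is not stated. Each group had 2 bead arrays, with PL RNA from a pool of 6 to 7 animals on each, so the number of arrays limits the precision and the spread between arrays is one between pools. Each of the 4 genes had 1 named probe, and all 4 probes were detected on all 6 arrays. Levels are log2 signals after quantile normalization.

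Immediate early genes are transcribed within minutes of synaptic activity, without new protein synthesis, and their transcripts are short-lived. Calcium entry and ERK signaling act on CREB and on serum response factor (SRF), which bind the promoters of many of these genes. In the cortex they are widely used as markers of recently active neurons. Fos and Fosb encode leucine zipper proteins that pair with Jun proteins to form the AP-1 transcription factor, Egr2 encodes a zinc finger transcription factor, and Arc encodes a synaptic protein that promotes the endocytosis of AMPA receptors.

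The RefSeq annotation of GRCm38.p6 places Fos at chr12:85473890-85477274, Fosb at chr7:19302696-19310118, Egr2 at chr10:67534469-67542188 and Arc at chr15:74669081-74672570, all as protein-coding genes. Promoter windows of 250 bases before and 50 bases after an annotated start matched 3 of the 4 genes, Fos, Fosb and Egr2. They are printed on the strand of the gene because the 3 genes differed together between groups. Capitals mark every match, on either strand, to the CREB motif TGACG, the CArG box bound by SRF, the AP-1 motif TGANTCA, the EGR motif GCGNGGGCG and the TATA motif TATAAA, and no matches overlapped each other. Of the 5 windows of Egr2, 3 overlap and hold matches to the same 2 motifs. The first of these, which begins at base 67537619, is shown.
Fos (chr12:85473640-85473939, plus strand): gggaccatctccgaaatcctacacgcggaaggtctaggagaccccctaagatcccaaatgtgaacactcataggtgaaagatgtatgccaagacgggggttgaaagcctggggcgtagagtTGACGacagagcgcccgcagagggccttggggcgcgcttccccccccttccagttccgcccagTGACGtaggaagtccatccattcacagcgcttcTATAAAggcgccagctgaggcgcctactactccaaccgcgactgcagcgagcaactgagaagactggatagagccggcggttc
Fosb (chr7:19309996-19310295, minus strand): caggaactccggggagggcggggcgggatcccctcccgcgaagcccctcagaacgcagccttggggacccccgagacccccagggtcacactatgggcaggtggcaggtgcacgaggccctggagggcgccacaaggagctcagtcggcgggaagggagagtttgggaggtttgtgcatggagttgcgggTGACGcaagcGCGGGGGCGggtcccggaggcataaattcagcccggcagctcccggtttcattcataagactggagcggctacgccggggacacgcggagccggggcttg
Egr2 (chr10:67537619-67537918, plus strand): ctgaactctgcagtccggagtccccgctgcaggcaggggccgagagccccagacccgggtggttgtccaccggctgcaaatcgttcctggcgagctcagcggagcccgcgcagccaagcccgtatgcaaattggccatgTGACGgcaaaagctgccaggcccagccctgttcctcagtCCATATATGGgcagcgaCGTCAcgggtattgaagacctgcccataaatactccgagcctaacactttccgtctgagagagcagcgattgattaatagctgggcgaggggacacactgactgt

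The CREB motif occurred in all 3 windows shown, in 3 of the 5 Egr2 windows, and in 20.8% of the 32817 windows of all genes. In Fos it began 129 and 66 bases before the start, with a TATA motif 33 bases before it. In Fosb it began 60 bases before the start, followed by an EGR motif 50 bases before. In Egr2 it began 111 bases before the start on the gene's strand and 55 bases before it on the other strand, on either side of a CArG box that began 72 bases before. A CArG box was present in 4 of the 5 Egr2 windows, 3 of which overlap and hold the same site, and in 1.63% of all windows. The EGR motif was present in 5.56% of all windows, the TATA motif in 13.6% and the AP-1 motif, which had no match in the windows shown, in 7.81%. These matches describe the letters of the windows, and binding was not measured.

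The 4 genes were highest in CON, intermediate in CRST and lowest in CRST+RS5 by group means. Such a decreasing order of the 3 means was found for 19.8% of the 13083 detected probes, and the choice of the genes fixes part of it. From CON to CRST+RS5 the mean normalized signal was lower 2.04-fold for Arc, 1.85-fold for Fos, 1.40-fold for Fosb and 1.31-fold for Egr2. In bulk tissue, fewer cells that express a gene and less RNA per cell cannot be told apart.

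**Figure D1:**
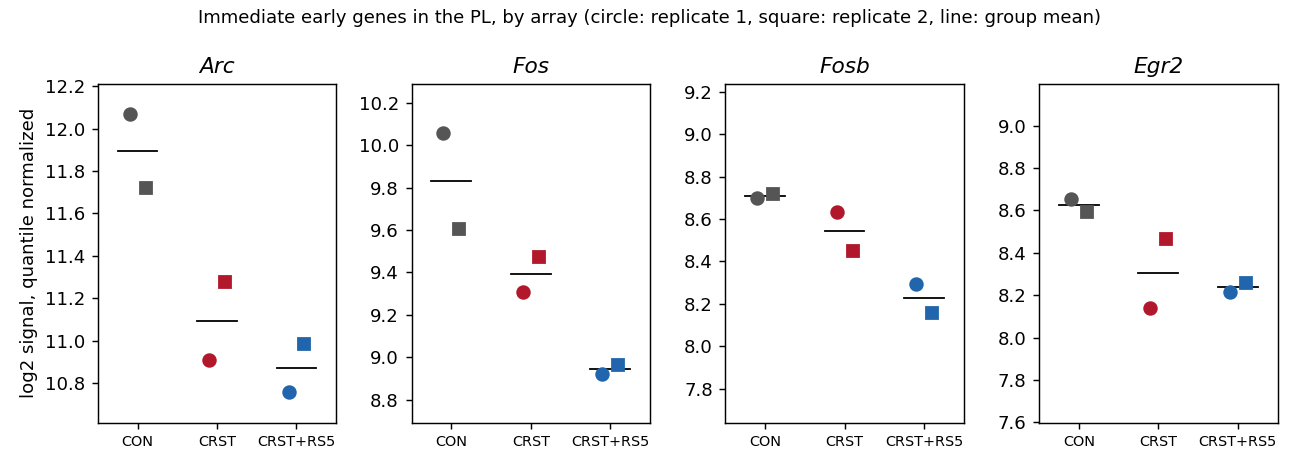
Each panel plots the log2 signal after quantile normalization (vertical axis, the same span of 1.6 log2 units in each panel) against the group for 1 gene, with a circle for replicate 1, a square for replicate 2 and a line for the mean of the 2 arrays. For Fos and Fosb the 3 groups do not overlap, while for Arc and Egr2 the CRST and CRST+RS5 arrays interleave.

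Fos, the AP-1 subunit most used to map neuronal activity, was at 10.06 and 9.60 on the CON arrays, at 9.31 and 9.47 on the CRST arrays and at 8.92 and 8.96 on the CRST+RS5 arrays. The CON arrays were the furthest apart and the CRST+RS5 arrays nearly alike, and no group overlapped another. The level in CRST was lower than in CON by a log2 difference of -0.44 (standard error 0.14, n = 2 arrays per group), which is 1.36-fold, and the level in CRST+RS5 was lower than in CRST by -0.45, which is 1.37-fold. The first of these depended on 1 CON array. Without CON replicate 1 it was -0.21, under 1.2-fold, and without CON replicate 2 it was -0.67. The difference between CRST+RS5 and CRST stayed between -0.53 and -0.37 when any 1 array was left out.

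Fosb, which pairs with Jun proteins as Fos does and is known for a stable splice form that accumulates under repeated stimulation, was at 8.70 and 8.72 in CON, 8.63 and 8.45 in CRST, and 8.29 and 8.16 in CRST+RS5. The 3 groups did not overlap, as for Fos. Of all detected probes, 1.67% decreased from CON to CRST to CRST+RS5 without overlap between arrays, and of the 4 genes these 2 did. The log2 difference was -0.17 (standard error 0.091) between CRST and CON, which is 1.12-fold and outside the 1.2-fold criterion. It was -0.26 without CRST replicate 1 and -0.08 without CRST replicate 2. Between CRST+RS5 and CRST it was -0.32, which is 1.24-fold and just inside. Leaving out CRST replicate 1 changed this second step to -0.22, and leaving out CRST+RS5 replicate 2 to -0.25, both under 1.2-fold. Which splice forms of Fosb the probe reads was not examined.

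Egr2, a transcription factor of the EGR family, was at 8.65 and 8.59 in CON, 8.14 and 8.46 in CRST, and 8.22 and 8.26 in CRST+RS5. Both CRST+RS5 arrays lay between the 2 CRST arrays, and all 4 lay below CON. The log2 difference between CRST and CON was -0.32 (standard error 0.11), which is 1.25-fold, and it was -0.16 without CRST replicate 1 and -0.48 without CRST replicate 2. Between CRST+RS5 and CRST the difference was -0.06, and its sign depended on CRST replicate 2, without which it was 0.10, while without CRST replicate 1 it was -0.23.

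Arc, the synaptic effector among the 4, was at 12.07 and 11.72 in CON, 10.91 and 11.28 in CRST, and 10.76 and 10.98 in CRST+RS5. The CON arrays stood well above the rest, and CRST+RS5 replicate 2 lay above CRST replicate 1. The log2 difference between CRST and CON was -0.80 (standard error 0.15), which is 1.74-fold and the lowest value of all 13083 probes, and it stayed between -0.99 and -0.62 when any 1 array was left out. Between CRST+RS5 and CRST it was -0.22, which is 1.17-fold and just under the criterion. This second step was -0.41 without CRST replicate 1 and -0.04 without CRST replicate 2. With arrays scaled to a common median in place of quantile normalization it was -0.38, past 1.2-fold. Under that scaling the median of all detected probes was -0.11.

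In the deposited signals, before normalization, the order of the groups was less clean. Fos read 951 and 842 in CON, 576 and 872 in CRST, and 460 and 495 in CRST+RS5, so that CRST replicate 2 lay between the CON arrays. Fosb read 372 and 454 in CON and 359 and 413 in CRST, so that CRST replicate 2 again lay between the CON arrays. Egr2 read 363 and 414 in CON and 254 and 418 in CRST, and CRST replicate 2 was above both CON arrays. CRST replicate 2 was the brightest array, with a median signal of 230 against 185.6 to 216 on the other arrays. Fosb and Egr2 also lay close to the detection limit, at 1.43 to 2.12 and 1.38 to 2.01 times the lowest detected signal of the array, while Fos lay at 2.26 to 5.27 and Arc at 7.93 to 21.7 times that signal.

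In the comparison of CRST with CON, 3 of the 4 genes (Arc, Fos and Egr2) were lower by at least 1.2-fold, against 0.864% of all detected probes. All 4 had both CRST arrays below both CON arrays, which held for 14.3% of all detected probes. Between CRST+RS5 and CRST, 2 of the 4 (Fos and Fosb) were lower by at least 1.2-fold, against 1.75% of all detected probes, and the same 2 did not overlap, against 21.8%. Nothing is read from these counts, because the genes were chosen on these differences. Of the 13083 probes, counted from the lowest difference, Arc was at place 1 between CRST and CON and at place 422 between CRST+RS5 and CRST, Egr2 at places 46 and 4179, Fos at places 9 and 19, and Fosb at places 604 and 92.

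**Figure D2:**
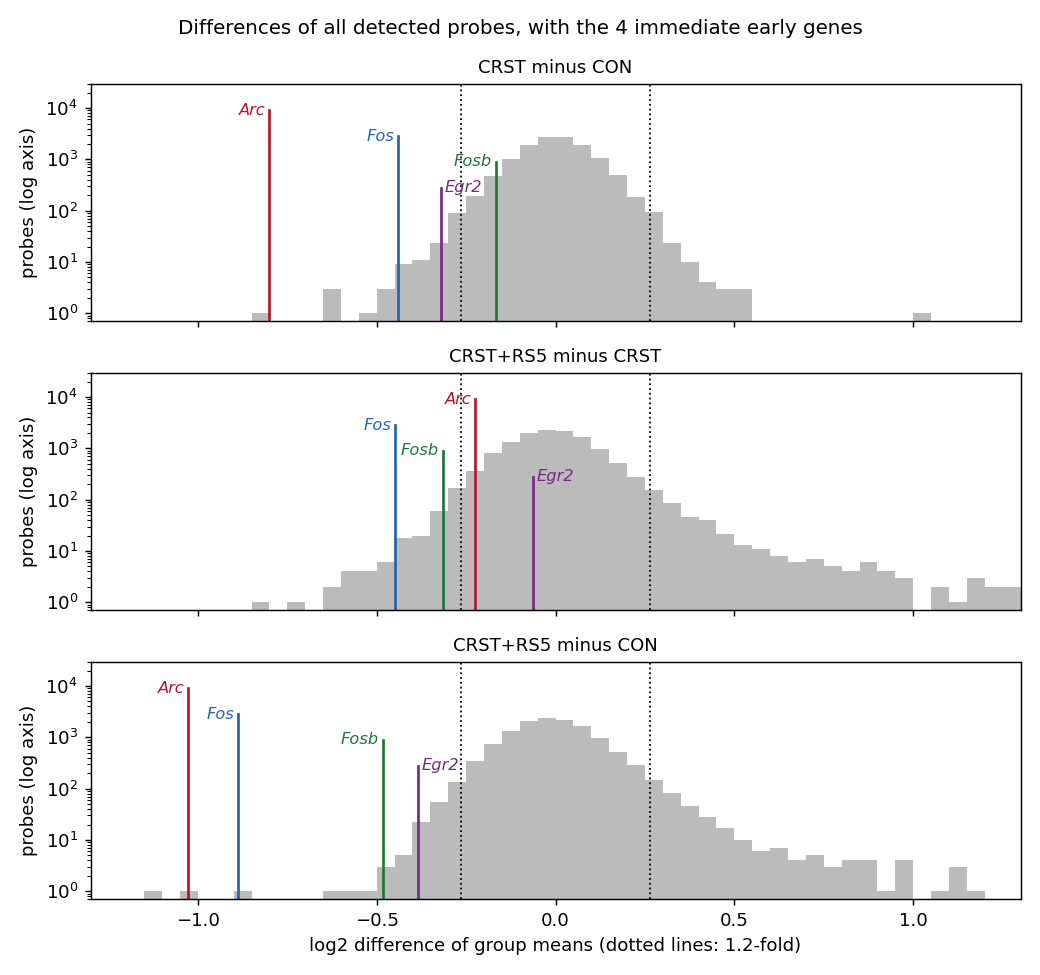
The histograms show the log2 difference of group means (horizontal axis, in bins of 0.05) for the detected probes within 1.3 log2 units of 0, with the number of probes on a log axis, for CRST minus CON, CRST+RS5 minus CRST and CRST+RS5 minus CON. Coloured lines mark the 4 genes and dotted lines 1.2-fold. Arc and Fos lie at the far left edge in CRST+RS5 minus CON, at -1.03 and -0.89.

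The comparison of CRST+RS5 with CON was not used to choose the genes, but it is the sum of the 2 comparisons that were, and it shares their arrays. All 4 genes were lower by at least 1.2-fold there, against 1.31% of all detected probes, and all 4 had both CRST+RS5 arrays below both CON arrays, against 22.2%. The log2 differences were -1.03 for Arc, -0.89 for Fos, -0.48 for Fosb and -0.39 for Egr2. They took places 2, 3, 7 and 19, counted in the same way. With any 1 array left out, Arc stayed between -1.20 and -0.85, Fos between -1.12 and -0.66, Fosb between -0.55 and -0.41 and Egr2 between -0.42 and -0.36. In limma's moderated test over the 6 arrays with Benjamini-Hochberg adjustment, 0 of the 13083 probes (0%) reached an adjusted p of 0.05, with 1045 probes at an unadjusted p under 0.05 and a smallest adjusted p of 0.331. None of the 4 genes therefore passed the test.

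**Figure D3:**
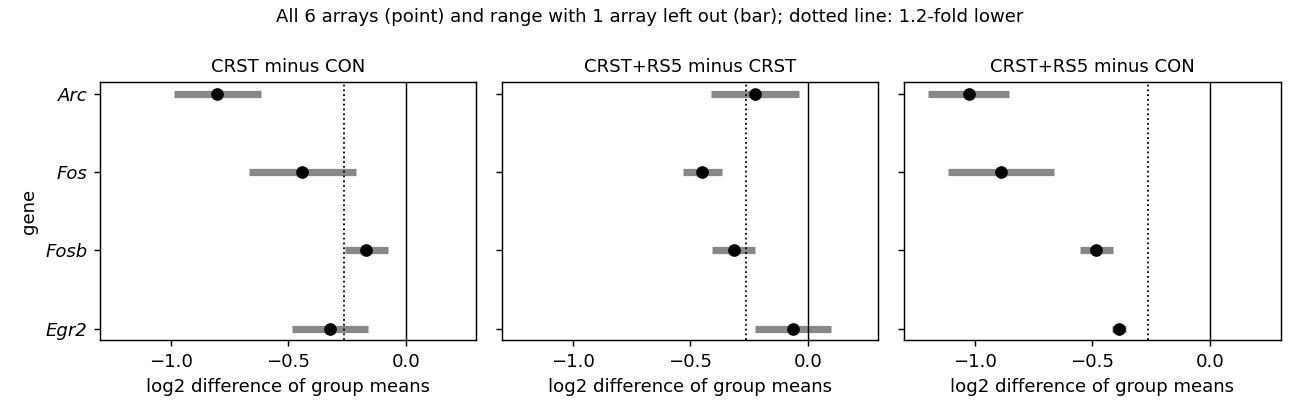
Points give the log2 difference of group means from all 6 arrays (horizontal axis) for each gene (vertical axis) in the 3 comparisons, and bars the range with 1 array left out. The bars of all 4 genes lie beyond the dotted line of 1.2-fold in CRST+RS5 minus CON, while those of Fos and Egr2 cross it in CRST minus CON and that of Egr2 crosses 0 in CRST+RS5 minus CRST.

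The 4 genes also varied between the 2 arrays of a group. Replicate 2 minus replicate 1 was -0.35, 0.37 and 0.23 for Arc in CON, CRST and CRST+RS5, and -0.45, 0.16 and 0.04 for Fos. Egr2 differed by -0.06, 0.32 and 0.04, in the same directions as Arc, whereas Fosb differed by 0.02, -0.18 and -0.14, in the opposite directions. Over the 6 arrays the pairwise correlation ran from 0.57 (Fosb with Egr2) to 0.95 (Arc with Egr2), which the shared group differences contribute to. After subtraction of the group means it was 0.85 for Arc with Fos, 0.82 for Arc with Egr2 and 0.51 for Fos with Egr2. For Fosb it was -0.84 with Arc, -0.87 with Egr2 and -0.41 with Fos. These values rest on 1 deviation per group and share the arrays.

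Besides the 4, 10 genes that neuronal activity or growth factors induce carry a name in the tables, out of 55 that were looked up, and the tables name them because they passed 1.2-fold on these arrays. The others looked up are in neither table, so their probes could not be identified. The 10 therefore do not stand for the class. Of these 10, 6 were lower in CRST than in CON by at least 1.2-fold and 0 were higher, against 0.864% and 0.78% of all detected probes. The median log2 difference was -0.28, against 0.00 over all detected probes. These 6 are the ones that the table for this comparison lists, so the counts are fixed by the naming. The median is shaped by it too, and nothing is read from either. With arrays scaled to a common median, 4 were lower and 1 higher, since Dusp6 (-0.20) and Nptx2 (-0.22) came under 1.2-fold and Per2 (0.28) past it. The 6 were Dusp1 and Dusp6, phosphatases that inactivate MAP kinases (-0.37 and -0.27), Npas4, a neuronal transcription factor induced by calcium (-0.34), Inhba, a subunit of activin (-0.34), Cdkn1a, a cell cycle inhibitor (-0.34), and Nptx2, a secreted pentraxin of excitatory synapses (-0.29). Each of these 6 was under 1.2-fold with at least 1 array left out. Without CRST replicate 2 the difference was -0.08 for Nptx2, -0.16 for Cdkn1a, -0.18 for Npas4, -0.19 for Dusp6 and -0.23 for Inhba. Without CON replicate 1 it was -0.14 for Npas4, -0.17 for Nptx2 and -0.26 for Dusp6, and without CRST replicate 1 it was -0.17 for Dusp1.

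The 10 genes differed in both directions between CRST+RS5 and CRST. Those past 1.2-fold are the ones that the second table lists, so their number is fixed by the naming. Only Rem2, a small GTPase that inhibits calcium channels, was lower by at least 1.2-fold (-0.41, and -0.23 without CRST+RS5 replicate 1), and Klf2, a zinc finger transcription factor (0.38), Ier3, an early response gene (0.34), and Per2, a clock gene (0.28), were higher. Klf2 and Ier3 stayed beyond 1.2-fold with any 1 array left out, while Per2 was at 0.09 without CRST+RS5 replicate 2. The median of the 10 was 0.05, against -0.01 over all detected probes, of which 1.75% were lower and 2.89% higher by at least 1.2-fold. This split depended on the scaling. With arrays scaled to a common median 3 were lower, Rem2 (-0.50), Dusp1 (-0.41) and Npas4 (-0.27), and 1 was higher, Klf2 (0.29). The median of the 10 was then -0.07, against -0.11 over all detected probes. Under that scaling 1216 of all detected probes were lower by at least 1.2-fold, in place of 229.

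Dusp1 and Npas4 had the order of group means of Fos, with a lower mean at each step. From CRST to CRST+RS5, however, both differed by less than 1.2-fold (-0.26 and -0.20). That step was -0.05 for Dusp1 without CRST replicate 2 and -0.04 for Npas4 without CRST replicate 1. Dusp1 was at 12.25 and 12.17 in CON, 11.63 and 12.04 in CRST, and 11.53 and 11.61 in CRST+RS5, and the 3 groups did not overlap. Npas4 was at 9.39 and 8.99 in CON, 9.01 and 8.69 in CRST, and 8.65 and 8.65 in CRST+RS5, where CRST replicate 1 lay just above CON replicate 2. The log2 differences of Dusp1 and Npas4 between CRST+RS5 and CON were -0.63 and -0.54, at places 4 and 6 of the 13083 probes, and both stayed beyond 1.2-fold with any 1 array left out. In that comparison 4 of the 10 genes were lower by at least 1.2-fold, against 1.31% of all detected probes, and 2 were higher. The median of the 10 was -0.24 against -0.01. This comparison is the sum of the 2 that named the genes, so the naming shapes these values too. With arrays scaled to a common median 7 were lower and 1 higher, while 430 of all detected probes were lower in place of 172. Under quantile normalization the other 2 that were lower, Inhba (-0.28) and Nptx2 (-0.27), were at -0.16 and -0.11 without CRST+RS5 replicate 2. Of the 2 that were higher, Klf2 (0.27) was at -0.068 without CON replicate 1, while Per2 (0.50) stayed beyond 1.2-fold.

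**Figure D4:**
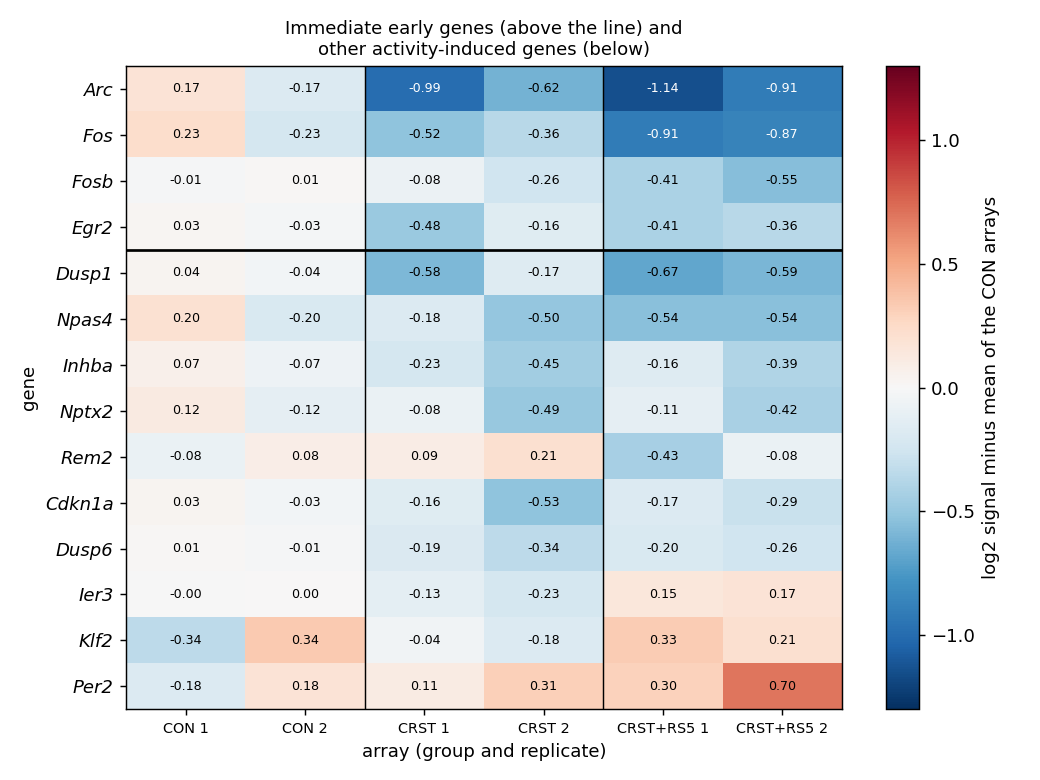
The heatmap gives the log2 signal of each gene (rows) on each array (columns) minus the mean of the CON arrays, with blue below and red above CON. The 4 immediate early genes and Dusp1, Npas4, Inhba, Nptx2, Cdkn1a and Dusp6 are below the CON mean on all 4 CRST and CRST+RS5 arrays, whereas Per2 is above it on all 4.

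The named partners and regulators of the 4 proteins had no common direction. Of 45 looked up, 6 carry a name through the same selection. The others were not examined. All 6 are in the second table and only Rras2 is also in the first. The counts past 1.2-fold in the comparisons of these tables are therefore fixed by the naming. Between CRST and CON, Rras2, a small GTPase of the Ras family, was higher (0.40, and 0.14 without CRST replicate 1) and none was lower. Rras2 lay close to the detection limit, and background correction by neqc gave 0.82 for this difference and -0.57 for that between CRST+RS5 and CRST. In CRST+RS5 relative to CRST, 4 were lower by at least 1.2-fold and 2 higher, against 1.75% and 2.89% of all detected probes. The median was -0.29 against -0.01, and nothing is read from it, because the genes were selected on this difference. With arrays scaled to a common median 4 were lower and 0 higher, where the median of all detected probes was -0.11. The lower ones were Sh3gl2 (-0.33), an endophilin and so of the family through which Arc acts on receptor endocytosis, Rras2 (-0.29), Nab1 (-0.29), a corepressor of EGR proteins, and Rasgrf1 (-0.28), a calcium-responsive activator of Ras. The higher ones were Araf (0.38), a kinase upstream of ERK, and Ppp3ca (0.32), a catalytic subunit of calcineurin. Only Ppp3ca stayed beyond 1.2-fold with any 1 array left out. Without CRST+RS5 replicate 1 the difference was -0.21 for Sh3gl2 and -0.24 for Nab1, without CRST replicate 1 it was -0.03 for Rras2 and -0.14 for Rasgrf1, and without CRST+RS5 replicate 2 it was 0.22 for Araf. Relative to CON, Rasgrf1 in CRST+RS5 was lower by at least 1.2-fold (-0.42) and Ppp3ca higher (0.31, and 0.20 without CON replicate 1).

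Among the 675 other named and detected probes, Dynll2, a dynein light chain, followed the mean pattern of the 4 genes most closely over the 6 arrays, at r = 0.987. Dynll2 was at 10.73 and 10.20 in CON, 9.66 and 10.03 in CRST, and 9.23 and 9.43 in CRST+RS5, and no groups overlapped. Its log2 difference between CRST+RS5 and CON, -1.13, was larger in size than that of Arc. Next came Dusp1 (0.957), LOC100046232 (0.951), Hist1h2be, a histone H2B gene (0.934), Mex3c, an RNA-binding ubiquitin ligase (0.897), and H2-T23, a nonclassical MHC class I gene (0.879). Of all detected probes, 119 reached r = 0.9 or more, so that this likeness over 6 arrays in 3 groups is shared by many probes.

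The arrays also differed in markers of the cells in the dissected tissue. As the tables name a probe only where it passed 1.2-fold in CRST minus CON or CRST+RS5 minus CRST, counts of named markers past 1.2-fold in these comparisons are largely fixed by the naming. Over all detected probes, the share at least 1.2-fold higher was 0.78% in the first of them and 2.89% in the second. The share at least 1.2-fold lower was 0.864% and 1.75%. Of 14 markers of excitatory cortical neurons looked up, 9 carry a name and all 9 were detected. Their summed normalized signal was 20582 to 21155 in CON, 19968 to 24421 in CRST and 17188 to 19805 in CRST+RS5, and the median log2 difference was 0.04 between CRST and CON and -0.31 between CRST+RS5 and CRST. In the latter, 7 of the 9 fell short of CRST by 1.2-fold or more, including the deep layer genes Fezf2 (-0.41), Tle4 (-0.36) and Tbr1 (-0.27), and 2 were higher, the upper layer gene Cux2 (0.41) and Otof (0.53). Fos and Fosb were lower in the same comparison, and the part of these markers in that was not tested.

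Markers of other cells differed as well. Relative to CRST, all 17 meningeal fibroblast markers were at least 1.2-fold higher in CRST+RS5. Their summed signal was 30704 to 32235, against 10171 to 15914 in CRST and 14157 to 21084 in CON. Also higher were all 8 vessel markers, all 7 detected markers of border macrophages and 6 of the 7 detected markers of olfactory bulb neurons. Olfactory mucosa genes, of which 4 of 12 passed the detection filter on both arrays of a group, were high on CRST+RS5 replicate 2 alone. The signal summed over all 12 was 32865 there, against 2319 to 2933 on the other arrays. The difference between CRST+RS5 and CON without that array was -1.14 for Arc, -0.91 for Fos, -0.41 for Fosb and -0.41 for Egr2. Of the 18 myelin markers 17 were higher in CRST than in CON by at least 1.2-fold, with a summed signal of 157512 on CRST replicate 2 against 71103 to 86583 on the other arrays. In CRST+RS5, 17 of the 18 were lower than in CRST. Of the 17 meningeal markers 12 were lower in CRST than in CON, with a median log2 difference of -0.37, as were 4 of the 7 detected markers of olfactory bulb neurons, with a median of -0.32. Arc, Fos and Egr2 were lower in the same comparison, and the part of these markers in that was not tested. Without CRST replicate 2, the difference between CRST and CON was -0.99 for Arc, -0.52 for Fos, -0.48 for Egr2 and -0.08 for Fosb.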

How the data were processed

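Bead signals of the 6 arrays were extracted by the authors, who deposited mean bead intensities on the linear scale, a detection p-value for every probe on every array, and quantile normalized log2 values. Whether background was subtracted is not stated. The intensities were log2 transformed and quantile normalized in R 4.3.3 with limma 3.58.1, and they correlated with the deposited log2 table at r = 0.999996 on each array. Of 25697 probes, 13083 were kept, those with a detection p-value under 0.05 on the 2 arrays of 1 or more groups, and 12645 to 13407 per array were detected. Signals at or near the detection limit understate fold changes.

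Samples were grouped by their labels. Group means were compared at 1.2-fold, and CRST+RS5 with CON also by limma over all detected probes, a step tested on simulated data. Standard errors are limma's moderated ones over 6 arrays. The symbols come from the study's 2 tables of selected genes, from which no value was used, and positions and promoters from RefSeq, GRCm38.p6, matched by accession and symbol. The genes, gene lists and marker lists were chosen with earlier results of these data known. Named were the 4 genes, the listed genes with a name and the 6 named probes most like the mean of the 4. Dynll2 and Dusp1 belong to these 6. The genes named as cell markers were picked after their values were seen. Alternatives covered normalization, background correction, an offset of 50, the detection filter, the replicate number as a block, the groups compared alone and each array left out. For named genes other than the 4, the normalization, the background correction, the offset and each array left out were added as alternatives after seeing the data.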

Additional observations from a re-analysis of the deposited data

How the results depend on the processing

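Of 108 values of the 4 genes under alternatives that could move them, 107 were negative and 80 were lower by at least 1.2-fold. The latter include all 36 for CRST+RS5 minus CON. The genes were chosen as lower on these same arrays, which fixes part of the sign. Background correction by neqc gave -0.53 for Fosb in CRST+RS5 minus CRST and -0.54 for Egr2 in CRST minus CON, and in CRST+RS5 minus CON -0.79 for Fosb and -0.64 for Egr2. With 1 array left out, Fos ran from -0.67 to -0.21 and Egr2 from -0.48 to -0.16 in CRST minus CON, and Egr2 from -0.23 to 0.10 in CRST+RS5 minus CRST. The number of probes lower by at least 1.2-fold moved more. For CRST minus CON it was 113, and 65 with arrays scaled to a common median, 690 after neqc, 69 with 50 added and 226 to 400 with 1 array of the comparison left out. For CRST+RS5 minus CRST it was 229, and 1216, 1066, 138 and 364 to 581. For CRST+RS5 minus CON it was 172, and 430, 1001, 114 and 268 to 467. The cause was not tested. Scaling to a common median moved the median of all probes to -0.11 in CRST+RS5 minus CRST, and there Ier3 was at 0.19, Per2 at 0.12 and Ppp3ca at 0.16, under 1.2-fold. The count of probes past the adjusted p in CRST+RS5 minus CON ran from 0 to 11 with 1 array left out, 11 of them without CRST+RS5 replicate 1, against 1 when replicate 2 of that group was left out, and was 0 in each other alternative run. Of the other named genes, Klf2 changed sign in CRST+RS5 minus CON, where its 0.27 ran from -0.068 (without CON replicate 1) to 0.60 (without CON replicate 2).

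Arrays with the same replicate number deviated together at r = 0.247 (CON with CRST), 0.259 (CRST with CRST+RS5) and 0.0509 (CON with CRST+RS5), and no source says that a number marks a set, so the numbers were not used to pair arrays. With the replicate block, 0 probes passed the adjusted p, and the adjusted p was 0.0999 for Arc, 0.102 for Fos, 0.13 for Fosb and 0.332 for Egr2 in CRST+RS5 minus CON.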
